A study of Mus musculus with 5 samples.

Results

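Elastic fibres are the stretchable cables of the extracellular matrix, and their genes were followed here through 5 single-cell RNA sequencing libraries of sorted mouse liver cells. The group was a given list of 10 genes, Eln, Fbn1, Fbln1, Fbln2, Fbln5, Mfap4, Mfap5, Efemp1, Emilin1 and Mgp, all 10 of which were among the 31053 genes counted. An elastic fibre is built on a scaffold of fibrillin microfibrils. Secreted elastin monomers are gathered onto this scaffold with the help of short fibulins and are then cross-linked by lysyl oxidases. In the liver such fibres lie mainly in vessel walls and portal tracts, where fibroblasts and smooth muscle cells make them, and they also build up in fibrotic scars.

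The mice were male Rosa26mTmG;Col1a1-Cre animals on a C57BL/6J background. Their Cre recombinase is driven by a Col1a1 collagen promoter, so that a green cell is one in which this promoter was active at some time, not necessarily at sorting. Animals of the DEN+WAD groups had received the carcinogen diethyl nitrosamine (DEN, 10 mg/kg) at 2 weeks of age and then, from 6 weeks of age and for 5 months, a liquid Western alcohol diet (WAD) with ethanol at 3.5% by volume. The chow groups had received saline and chow over the same period. Liver non-parenchymal cells were sorted by the green signal and by the autofluorescence of stored vitamin A (VitA), which marks hepatic stellate cells, into VitA+Col1a1+ and VitA-Col1a1+ cells of DEN+WAD liver, the same gates of chow liver, and a gate labelled VitA-Col1a1- of DEN+WAD liver. Each group was 1 library and the labels do not say how many mice went into it, so every interval given here covers counting error only and no difference was tested against replicates.

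The libraries held 10481, 2729, 259, 668 and 9870 cells in the order VitA+Col1a1+ DEN+WAD, VitA-Col1a1+ DEN+WAD, VitA+Col1a1+ chow, VitA-Col1a1+ chow and labelled VitA-Col1a1-, with 6145748 to 149936344 unique molecular identifiers (UMIs, 1 per captured RNA molecule). Between 0 and 21 cell barcodes were shared by any pair of libraries. Col1a1 RNA stood at 1062 UMIs per 1000000 (CPM) in the library labelled VitA-Col1a1-, above its 304 CPM in VitA+Col1a1+ DEN+WAD, so no direction is drawn from the Col1a1- label. The stellate list of 10 markers summed to 26210 and 26208 CPM in the VitA+ libraries, 10263 and 3761 CPM in the VitA-Col1a1+ libraries of DEN+WAD and chow, and 4587 CPM in the labelled library. The fibroblast list ran the other way among the Col1a1+ libraries, at 107 and 55.2 CPM in VitA+ and 1873 and 4706 CPM in VitA-. The 7 macrophage markers summed to under 1 CPM in each Col1a1+ library and to 4185 CPM in the labelled one. All 10 stellate markers had a UMI in every library, and all 10 fibroblast markers in every library but VitA+Col1a1+ chow, where Pi16, Col15a1 and Ly6c1 were at 0.

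The genes fell into a larger set that was higher in the VitA- gate and a pair, Efemp1 and Emilin1, that was higher in the VitA+ gate. In values summed over a library, fewer cells of a type and less RNA per cell cannot be told apart. Levels of different genes are not ranked against each other here, since 3' capture can differ between transcripts.

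Eln (chr5:134702593-134747323, minus strand, GRCm38) encodes tropoelastin, the monomer of the elastic core. Its level was 24.0 CPM in VitA+Col1a1+ DEN+WAD, 179 CPM in VitA-Col1a1+ DEN+WAD, 19.2 CPM in VitA+Col1a1+ chow, 454 CPM in VitA-Col1a1+ chow and 72.9 CPM in the labelled library. Both VitA- levels lay above both VitA+ levels. In VitA-Col1a1+ chow 1 cell with 135909 UMIs held 820 of the 6806 Eln UMIs, and the level without it was 403 CPM.

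Fbn1 (chr2:125300594-125507993, minus strand) encodes fibrillin-1, the main subunit of the microfibril. Its level was 101 CPM in VitA+Col1a1+ DEN+WAD, 123 CPM in VitA-Col1a1+ DEN+WAD, 98.4 CPM in VitA+Col1a1+ chow, 211 CPM in VitA-Col1a1+ chow and 175 CPM in the labelled library. The 2 VitA+ levels were within counting error of each other (ratio 1.03, interval 0.948 to 1.12).

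Mfap4 and Mfap5 encode microfibril-associated proteins. Mfap4 (chr11:61485431-61488900, plus strand) stood at 7.25, 304, 0.325, 539 and 113 CPM in the same order of libraries, with only 2 UMIs in VitA+Col1a1+ chow. Mfap5 (chr6:122505845-122529290, plus strand) was scarce everywhere, with 1, 6, 0, 65 and 144 UMIs. Of the 144 UMIs in the labelled library 116 lay in a single cell, which also held 74 UMIs of the fibroblast gene Pi16, and without that cell the level dropped from 1.36 to 0.265 CPM.

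The list held 4 fibulins, Efemp1 among them. Fbln1 (chr15:85205949-85286535, plus strand), found in elastic tissue and basement membranes, stood at 3.69, 221, 0.488, 476 and 71.8 CPM, and all 3 of its UMIs in VitA+Col1a1+ chow came from 1 cell. Fbln2 (chr6:91212455-91272540, plus strand), a long fibulin of vessel walls, stood at 2.07, 14.9, 2.44, 38.9 and 18.1 CPM. Fbln5 (chr12:101746565-101819055, minus strand), which guides elastin onto microfibrils, stood at 258, 621, 233, 1480 and 201 CPM. Efemp1 (chr11:28853204-28926743, plus strand), also called fibulin-3, ran against them at 883, 484, 720, 114 and 109 CPM, highest in the VitA+ libraries.

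Emilin1 (chr5:30913402-30921277, plus strand) encodes a glycoprotein at the border of elastin and microfibrils. It varied least of the 10 genes and shared the direction of Efemp1, at 656, 482, 678, 345 and 440 CPM. Mgp (chr6:136872435-136875823, minus strand), the matrix Gla protein that inhibits calcification of elastic tissue, had a wide range, at 19.6 CPM in VitA+Col1a1+ DEN+WAD, 1058 CPM in VitA-Col1a1+ DEN+WAD, 2295 CPM in VitA-Col1a1+ chow and 431 CPM in the labelled library. VitA+Col1a1+ chow held 0 Mgp UMIs of 6145748, where the floor of 3 UMIs used here for a count of 0 is 0.488 CPM (the exact interval reaches 0.600 CPM).

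**Figure D1:**
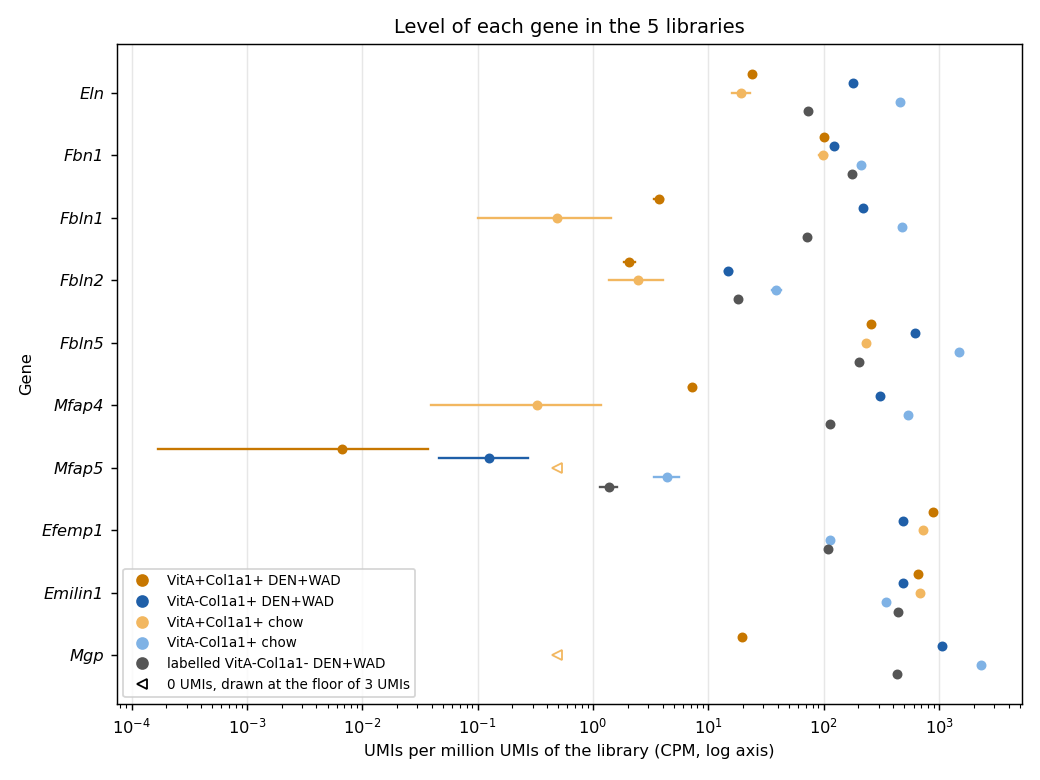
Level of the 10 genes in each library, in UMIs per 1000000 UMIs on a log axis, where points are library values, bars are exact Poisson 95% intervals for counting error and open triangles mark 0 UMIs drawn at 3 UMIs. VitA-Col1a1+ chow is highest for 8 genes, while Efemp1 is highest in VitA+Col1a1+ DEN+WAD and Emilin1 in VitA+Col1a1+ chow.

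The share of cells in which a gene was seen followed the same lines once every cell was thinned to 2000 UMIs. Mgp was seen in 0.553% of cells (exact interval 0.419 to 0.716%) in VitA+Col1a1+ DEN+WAD, 21.4% (19.8 to 23.0%) in VitA-Col1a1+ DEN+WAD, 0 of 255 in VitA+Col1a1+ chow, where 3 cells would be 1.18%, and 52.9% (48.9 to 56.8%) in VitA-Col1a1+ chow. At full depth the Mgp shares of those of these 4 libraries with any were 1.35%, 40.6% and 66.8%. Efemp1 was seen in 78.4%, 47.8%, 73.3% and 14.5% of the thinned cells of the same 4 libraries, and in 96.8%, 69.0%, 95.4% and 36.8% at full depth. Macrophages of the labelled library, taken as cells outside the matrix-forming types, gave the background: after thinning Mgp was seen in 1.95% of 563 macrophages and Efemp1 in 0.178%, at a median depth before thinning of 10659 UMIs over all 789 macrophages against 13232 in VitA+Col1a1+ DEN+WAD. The Mgp share of VitA+Col1a1+ DEN+WAD lay below that share, which comes from another library with 431 CPM of Mgp in all, so the background of this library itself was not measured. In that library 7 cells held 50% of the Mgp UMIs, against 79 in VitA-Col1a1+ DEN+WAD, while 50% of its Efemp1 UMIs were spread over 3143 cells.

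In DEN+WAD liver, 6 of the 9 genes with enough UMIs were at least 2-fold higher in the VitA- gate and none was at least 2-fold lower. Over all 16336 genes with at least 10 UMIs, 21.0% were at least 2-fold higher and 3.02% at least 2-fold lower. The median log2 ratio was 2.85 for the 9 genes and 0.17 for all genes. Fbln1 was 59.7-fold higher (54.8 to 65.2), Mgp 53.9-fold (52.0 to 56.0), Mfap4 42.0-fold (39.4 to 44.7), Eln 7.47-fold (7.18 to 7.77), Fbln2 7.20-fold (6.29 to 8.25) and Fbln5 2.41-fold (2.38 to 2.45). Fbn1 was 1.22-fold higher (1.18 to 1.26). Efemp1 was 1.83-fold and Emilin1 1.36-fold higher in the VitA+ gate, with VitA- over VitA+ ratios of 0.548 (0.540 to 0.556) and 0.734 (0.723 to 0.744). With factors from the trimmed mean of M values (TMM) in place of total UMIs, the Efemp1 ratio was 0.476, past 2-fold. Mfap5, with 7 UMIs, was left out.

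In chow liver the same directions held and the gaps were wider. Of the 10 genes 8 were at least 2-fold higher in the VitA- gate, beside 16.2% of 13708 genes, and 1 was at least 2-fold lower, beside 6.84%. Eln was 23.6-fold higher (19.7 to 28.6), Fbln5 6.34-fold (6.01 to 6.69) and Fbn1 2.15-fold (1.97 to 2.34). Against 0 UMIs in the VitA+ library, Mgp was at least 4702-fold and Mfap5 at least 8.88-fold higher, with the empty library set at 3 UMIs. Against 3 and 2 UMIs, Fbln1 was 976-fold (334 to 4733) and Mfap4 1656-fold higher (458 to 13675), so these sizes are known only within wide limits. Efemp1 was 6.32-fold and Emilin1 1.96-fold higher in the VitA+ gate. The VitA+ chow library held only 259 cells.

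**Figure D2:**
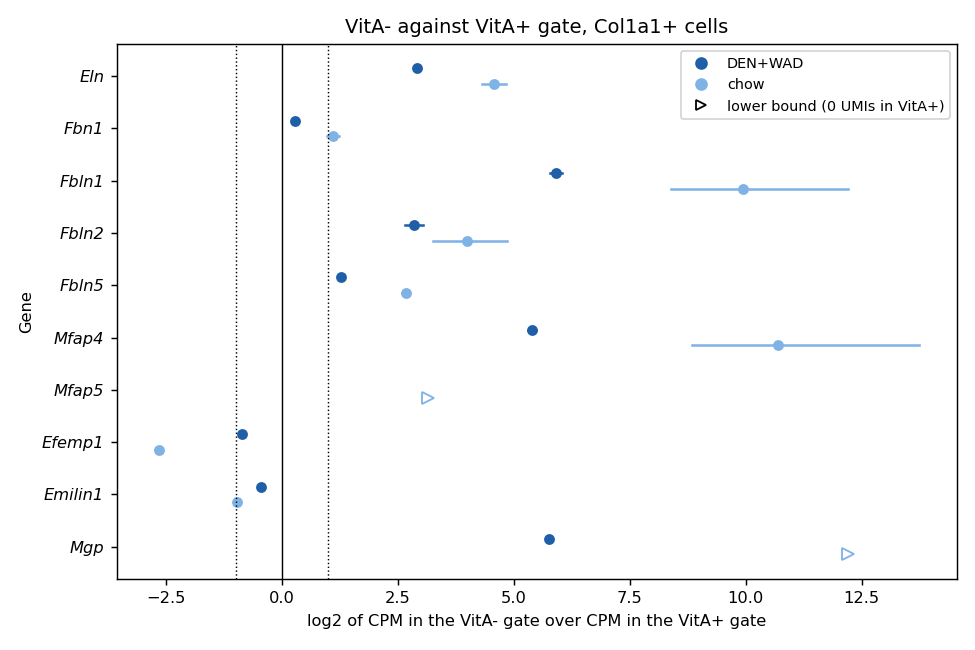
Log2 ratio of CPM in the VitA- gate to CPM in the VitA+ gate for each gene, in DEN+WAD and in chow liver, where bars are exact 95% counting intervals, open triangles are lower bounds, and dotted lines mark 2-fold. Efemp1 and Emilin1 lie left of 0 in both diets, and the chow point lies farther from 0 than the DEN+WAD point for each of the 9 genes with a point in both diets.

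Fbln1 and Fbln5 on the side of the VitA- gate and Efemp1 on the side of the VitA+ gate are the genes whose windows upstream of a RefSeq start site were clear of annotated exons, and these are shown as examples of each pattern. RefSeq promoters (GRCm38.p6) were at hand for 6 of the 10 genes. The windows below are chr11:28852955-28853203 (plus strand, 249 bases) for Efemp1, chr15:85205699-85205948 (plus strand, 250 bases) for Fbln1 and chr12:101819120-101819369 (minus strand, 250 bases) for Fbln5, each written 5′ to 3′ up to the last base before the transcript. Capitals mark matches, on either strand, to any of 5 motifs searched.

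Efemp1: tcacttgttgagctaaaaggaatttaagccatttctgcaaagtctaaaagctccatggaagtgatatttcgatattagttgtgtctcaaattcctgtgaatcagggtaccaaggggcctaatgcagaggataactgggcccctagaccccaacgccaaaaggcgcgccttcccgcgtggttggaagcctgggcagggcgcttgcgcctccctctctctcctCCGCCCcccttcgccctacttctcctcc

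Fbln1: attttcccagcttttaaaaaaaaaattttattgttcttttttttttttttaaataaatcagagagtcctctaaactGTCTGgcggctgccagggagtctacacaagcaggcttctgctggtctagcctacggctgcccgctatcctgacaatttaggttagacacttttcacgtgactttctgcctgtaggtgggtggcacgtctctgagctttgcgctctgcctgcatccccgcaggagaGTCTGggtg

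Fbln5: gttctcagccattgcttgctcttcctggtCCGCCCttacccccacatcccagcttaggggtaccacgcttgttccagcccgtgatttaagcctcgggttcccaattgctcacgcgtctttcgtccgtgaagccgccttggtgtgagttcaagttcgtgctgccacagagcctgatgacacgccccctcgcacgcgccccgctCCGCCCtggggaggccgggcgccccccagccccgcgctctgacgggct

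The Sp1 core, GGGCGG, matched at 1 place in Efemp1 and at 2 in Fbln5, and 32.7% of 32851 promoter windows of 250 bases held it. A core bound by Smad factors, CAGAC, matched at 2 places in Fbln1 and was held by 42.2% of windows. The other motifs were the TATA box with the letters TATAAA, in 12.4% of windows, the TEAD core with GGAATG, in 12.6%, and the AP-1 motif with TGACTCA, in 4.46%. Those letters were in none of the 3 windows. A match is a run of letters and not a shown binding site.

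The sorted libraries mix cell types, so the genes were next read within classes of cells. Mesenchymal cells were those with a summed Dcn, Col3a1 and Colec11 of at least 20 per 10000 UMIs, and they made up 97.9%, 81.1%, 95.4%, 92.1% and 52.6% of the libraries. They were divided by 5 fibroblast genes (Cd34, Dpt, Pi16, Clec3b and Thy1) and 4 smooth muscle genes (Myh11, Actg2, Cnn1 and Lmod1), each at a sum of at least 5 per 10000 UMIs, none of which is on the elastic list.

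Cells with fibroblast genes alone carried the highest levels of Mgp, Fbln1, Mfap4 and Fbln5 in both VitA-Col1a1+ libraries. In VitA-Col1a1+ DEN+WAD the 852 such cells stood at 2530 CPM for Mgp, 531 CPM for Fbln1, 747 CPM for Mfap4 and 1211 CPM for Fbln5. The 1102 cells with neither gene set, where Lrat-rich stellate cells fall, stood at 123, 12.9, 25.2 and 314 CPM for the same genes. The order was the reverse for Efemp1, at 415 CPM with fibroblast genes and 840 CPM with neither, and for Emilin1, at 476 and 608 CPM.

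Eln was shared between fibroblast-gene and smooth-muscle-gene cells. In the VitA- gate of DEN+WAD it stood at 321 CPM in fibroblast-gene cells, 226 CPM in the 139 smooth-muscle-gene cells, 460 CPM in the 119 cells with both sets and 62.8 CPM in cells with neither. In VitA-Col1a1+ chow the matching levels were 450, 451, 668 and 65.4 CPM. Fbln1 and Mgp did not share this spread: smooth-muscle-gene cells held 25.6 CPM of Fbln1 and 83.2 CPM of Mgp in DEN+WAD, and 71.1 and 105 CPM in chow. Mfap4 in smooth-muscle-gene cells stood at 15.6 CPM in DEN+WAD and 265 CPM in chow. Of the 65 Mfap5 UMIs in VitA-Col1a1+ chow, 47 lay in 11 of the 75 smooth-muscle-gene cells, at 31.5 CPM, and 17 in 4 of the cells with both sets.

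**Figure D3:**
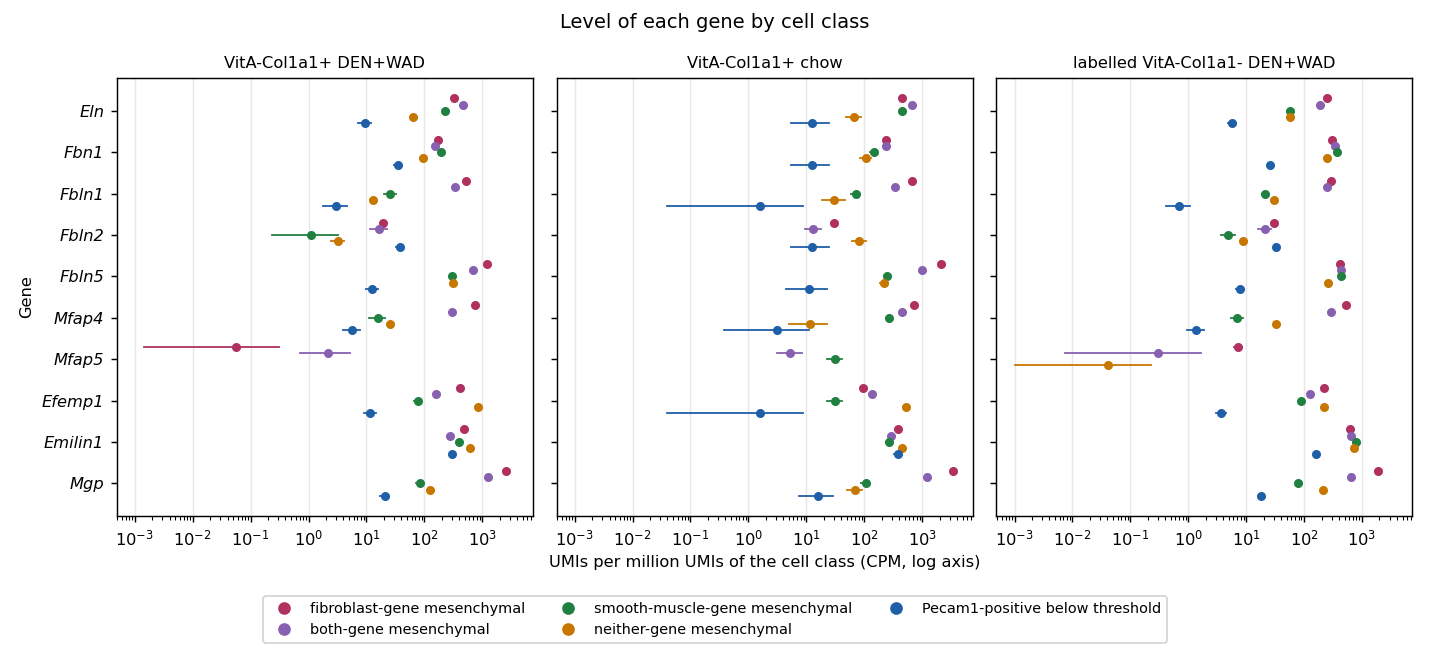
Level of each gene in 4 mesenchymal classes and in Pecam1-positive cells below the mesenchymal threshold, in CPM of the class on a log axis, for the 3 libraries of the VitA- gates, with exact Poisson 95% intervals as bars and no point for a class with 0 UMIs. Fibroblast-gene cells are highest for Mgp and Fbln1 in each library, and Efemp1 is highest in cells with neither gene set in the VitA-Col1a1+ libraries.

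In DEN+WAD liver the genes with the widest gaps also differed between the gates within classes. The classes themselves were not of the same makeup in both gates. Among all mesenchymal cells of DEN+WAD liver 6 of 9 genes were at least 2-fold higher in VitA- (15.6% of all genes) and none at least 2-fold lower (3.78%). Among fibroblast-gene cells of DEN+WAD liver, VitA- cells were above VitA+ cells for Fbln1 (531 against 75.3 CPM), Mgp (2530 against 445 CPM), Mfap4 (747 against 207 CPM) and Fbln5 (1211 against 509 CPM), and these 4 of 9 genes were at least 2-fold higher, beside 9.28% of all genes, with none at least 2-fold lower (4.0%). Eln stood at 321 against 190 CPM there, and Fbln2 went the other way, at 19.2 against 30.7 CPM. Among cells with neither gene set, 5 of 9 genes were at least 2-fold higher in VitA- (9.07% of all genes) and none at least 2-fold lower (2.48%), with Mfap4 at 25.2 against 1.05 CPM and Mgp at 123 against 6.60 CPM. Efemp1 (840 against 904 CPM) and Emilin1 (608 against 664 CPM) lay close together in that class. The VitA+ fibroblast-gene class held 231 cells, 2.25% of its mesenchymal cells, against 38.5% in VitA-Col1a1+ DEN+WAD. Fibroblast-gene cells summed to 10669 CPM of stellate and 1602 CPM of fibroblast markers in VitA+, and to 5309 and 4193 CPM in VitA-. Cells with neither set summed to 27152 and 54.4 CPM in VitA+, and to 19841 and 249 CPM in VitA-. The part of these markers in the gate differences within classes was not tested. Among cells with an Lrat UMI 6 of 9 genes were at least 2-fold higher in VitA- (14.2%) and among cells without one 4 of 9 (13.6%), with none at least 2-fold lower in either (3.46% and 7.06%). In chow liver the gate log2 ratio of Fbln5 was 2.66 over all cells but -0.15 among cells with neither set.

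The diet was read within each gate by setting DEN+WAD against chow. In VitA-Col1a1+ cells 6 of 10 genes were at least 2-fold lower in DEN+WAD, beside 9.25% of 15500 genes, and 1 was at least 2-fold higher, beside 9.48%. Eln was 2.53-fold, Fbln2 2.61-fold, Fbln5 2.38-fold, Mgp 2.17-fold and Fbln1 2.16-fold lower, and Mfap5, the sixth, had 6 UMIs against 65. Mfap4 was 1.77-fold and Fbn1 1.71-fold lower. Efemp1 was 4.25-fold higher (4.04 to 4.46) and Emilin1 1.39-fold higher (1.35 to 1.44).

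The makeup of the VitA-Col1a1+ libraries differed as well, and its part in these values was not tested. Fibroblast-gene cells were 38.5% of mesenchymal cells in DEN+WAD and 58.0% in chow, cells with both sets 5.38% and 23.6%, and cells with neither set 49.8% and 6.18%. Within fibroblast-gene cells none of the 9 genes with enough UMIs was at least 2-fold lower in DEN+WAD (5.31% of all genes were). There Mgp stood at 2530 against 3460 CPM, Eln at 321 against 450 CPM, Fbln1 at 531 against 678 CPM, Fbln5 at 1211 against 2114 CPM and Mfap4 at 747 against 716 CPM. Efemp1 kept its distance, at 415 CPM in DEN+WAD and 96.2 CPM in chow fibroblast-gene cells, the 1 gene of the 9 past 2-fold higher (6.08% of all genes were). These cells were not of the same makeup in both diets. They summed to 5309 CPM of stellate and 4193 CPM of fibroblast markers in DEN+WAD, and to 2349 and 6602 CPM in chow. The part of these markers in the values was not tested. Among cells with neither set, 38 of them in chow, Efemp1 stood at 840 against 525 CPM, 1 gene of 9 was at least 2-fold higher (5.41% of all genes) and 2 were at least 2-fold lower (7.72%).

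In VitA+Col1a1+ cells 3 of 9 genes were at least 2-fold higher in DEN+WAD, beside 3.95% of 15412 genes, and none was at least 2-fold lower, beside 11.2%. These were the genes nearly absent from the chow library. Mfap4 was 22.3-fold higher (6.15 to 184) against 2 UMIs, Fbln1 7.57-fold (2.58 to 36.8) against 3 UMIs and Mgp at least 40.2-fold against 0 UMIs. Others lay close together: Eln 24.0 against 19.2 CPM, Fbn1 101 against 98.4 CPM, Fbln5 258 against 233 CPM, Efemp1 883 against 720 CPM and Emilin1 656 against 678 CPM, the direction of the last turning with TMM factors (ratio 0.969, then 1.10). Fbln2 had a ratio of 0.847 (0.506 to 1.53), but 14 of its 15 chow UMIs came from 2 cells with genes of bile duct cells. Without cells of that kind, a class defined below, its ratio was 11.7 (2.08 to 462). Fibroblast-gene cells numbered 231 of 10257 mesenchymal cells in DEN+WAD and 1 of 247 in chow, and the summed fibroblast list stood at 107 and 55.2 CPM. The part of these cells in the 3 ratios was not tested.

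The diet comparison in the VitA- gate was also made in cells with and without Lrat, the gene of the enzyme that makes retinyl ester. Cells with an Lrat UMI were not of the same makeup in both diets: they summed to 13660 CPM of stellate and 1524 CPM of fibroblast markers in DEN+WAD, and to 4396 and 4899 CPM in chow. The part of these markers in the values below was not tested. Over all mesenchymal cells 4 of 10 genes were at least 2-fold lower in DEN+WAD (9.54% of all genes) and 1 at least 2-fold higher (6.67%). Among cells with an Lrat UMI 7 of 10 were lower (10.5%) and 1 higher (7.26%), with Mgp at 790 against 2493 CPM, Fbln5 at 605 against 1639 CPM, Eln at 178 against 476 CPM and Fbln1 at 170 against 475 CPM. Cells without an Lrat UMI held 5272 CPM of fibroblast markers in DEN+WAD and 5229 CPM in chow, and 3934 and 8864 CPM of smooth muscle markers. Among them only Mfap5, with 5 against 29 UMIs, was at least 2-fold lower (6.21%) and only Efemp1, at 190 against 66.8 CPM, at least 2-fold higher (3.99%). Mgp there turned, at 3651 CPM in DEN+WAD and 2151 CPM in chow, and so did Fbln1 (736 against 630 CPM) and Fbln5 (1386 against 1276 CPM). Mfap4 turned too, at 968 against 763 CPM in those of them with at least 2000 UMIs.

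Since that enzyme stores vitamin A and marks stellate cells, mesenchymal cells with and without an Lrat UMI were also set against each other within each library. A single Lrat UMI can come from free RNA: Lrat was seen in 83.5% of mesenchymal cells and 15.5% of Pecam1-positive cells of VitA-Col1a1+ DEN+WAD, in 78.0% and 10.5% of those of VitA-Col1a1+ chow, and in 5.45% of the macrophages of the labelled library. In VitA-Col1a1+ DEN+WAD, 364 cells without Lrat were set against 1848 with it, at median depths of 18640 and 17382 UMIs. Of 9 genes 6 were at least 2-fold higher without Lrat, beside 7.70% of all genes, and Efemp1 was at least 2-fold lower, beside 6.76%. Mgp stood at 3651 against 790 CPM, Fbln1 at 736 against 170 CPM, Mfap4 at 962 against 243 CPM, Fbln2 at 23.6 against 8.42 CPM, Fbln5 at 1386 against 605 CPM and Eln at 376 against 178 CPM. Efemp1 stood at 190 against 635 CPM, while Fbn1 (175 against 133 CPM) and Emilin1 (392 against 540 CPM) differed less.

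In VitA-Col1a1+ chow the same division left most genes near level. Of 10 genes 2 were at least 2-fold higher in the 135 cells without Lrat, beside 4.32% of all genes, and none was at least 2-fold lower, beside 4.59%. The 2 were Fbln2 (44.8 against 20.9 CPM) and Mfap5 (10.7 against 3.07 CPM), the scarcest of the list, and 56 of the 122 Fbln2 UMIs without Lrat came from 1 cell. Without the top cell of each class, the log2 ratio for Fbln2 dropped from 1.10 to 0.38. Mgp stood at 2151 CPM without Lrat and 2493 CPM with it, Fbln5 at 1276 and 1639 CPM, Eln at 504 and 476 CPM and Fbln1 at 630 and 475 CPM. Efemp1 was lower without Lrat, at a log2 ratio of -0.98, just short of 2-fold.

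In the other libraries the class without Lrat was small or shallow. In VitA+Col1a1+ DEN+WAD it held 113 cells with a median of 845 UMIs, 92 of them under 2000 UMIs, and 4 of 9 genes were at least 2-fold higher (10.6% of all genes) and 1 at least 2-fold lower (8.96%). Eln there stood at 241 against 23.6 CPM, Mfap4 at 162 against 6.93 CPM and Efemp1 at 353 against 895 CPM. Smooth muscle markers summed to 7244 against 1165 CPM and fibroblast markers to 997 against 99.9 CPM in the same cells, and their part in these differences was not tested. In the labelled library it held 840 cells, 471 of them under 2000 UMIs, and 6 of 10 genes were at least 2-fold higher (8.88% of all genes) and none at least 2-fold lower (3.25%), with Mgp at 3034 against 583 CPM and Mfap4 at 595 against 171 CPM. There fibroblast markers summed to 2199 against 1055 CPM. One of the 6 was Mfap5, most of whose UMIs lay in the single cell described above. Its log2 ratio was 8.47, and 6.56 without the top cell of each class. In VitA+Col1a1+ chow 2 cells lacked Lrat and no ratio is given.

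A finer view came from binning mesenchymal cells of at least 2000 UMIs by their Lrat level, at 0, above 0 and under 5, 5 to under 15, and 15 or more per 10000 UMIs. These bins were chosen after the Lrat contrast had been seen. In VitA-Col1a1+ DEN+WAD, from the lowest to the highest bin, Mgp stood at 3671, 1754, 45.2 and 18.4 CPM, Mfap4 at 968, 496, 68.8 and 5.91 CPM, and Fbln1 at 740, 350, 37.6 and 13.5 CPM. Fbln5 went from 1392 to 263 CPM and Eln from 378 to 60.8 CPM. Efemp1 went the other way, at 190, 361, 818 and 903 CPM. The bins held 320, 696, 711 and 431 cells.

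Efemp1 was higher in each successive Lrat bin in all 4 libraries with 4 filled bins, and Mfap4 and Fbln1 were lower in each. In VitA-Col1a1+ chow the top bin, of 44 cells, still held 459 CPM of Mgp, 259 CPM of Mfap4 and 278 CPM of Fbln1, far above the 18.4, 5.91 and 13.5 CPM of the top bin in DEN+WAD. In VitA+Col1a1+ DEN+WAD Mgp was highest not in the cells without Lrat (23.1 CPM, 9.29 to 47.6, 21 cells) but in the bin above 0 and under 5 (245 CPM, 384 cells). The first value rests on 7 UMIs, and 7 cells held 50% of the Mgp UMIs of that library, so this order depends on few cells.

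**Figure D4:**
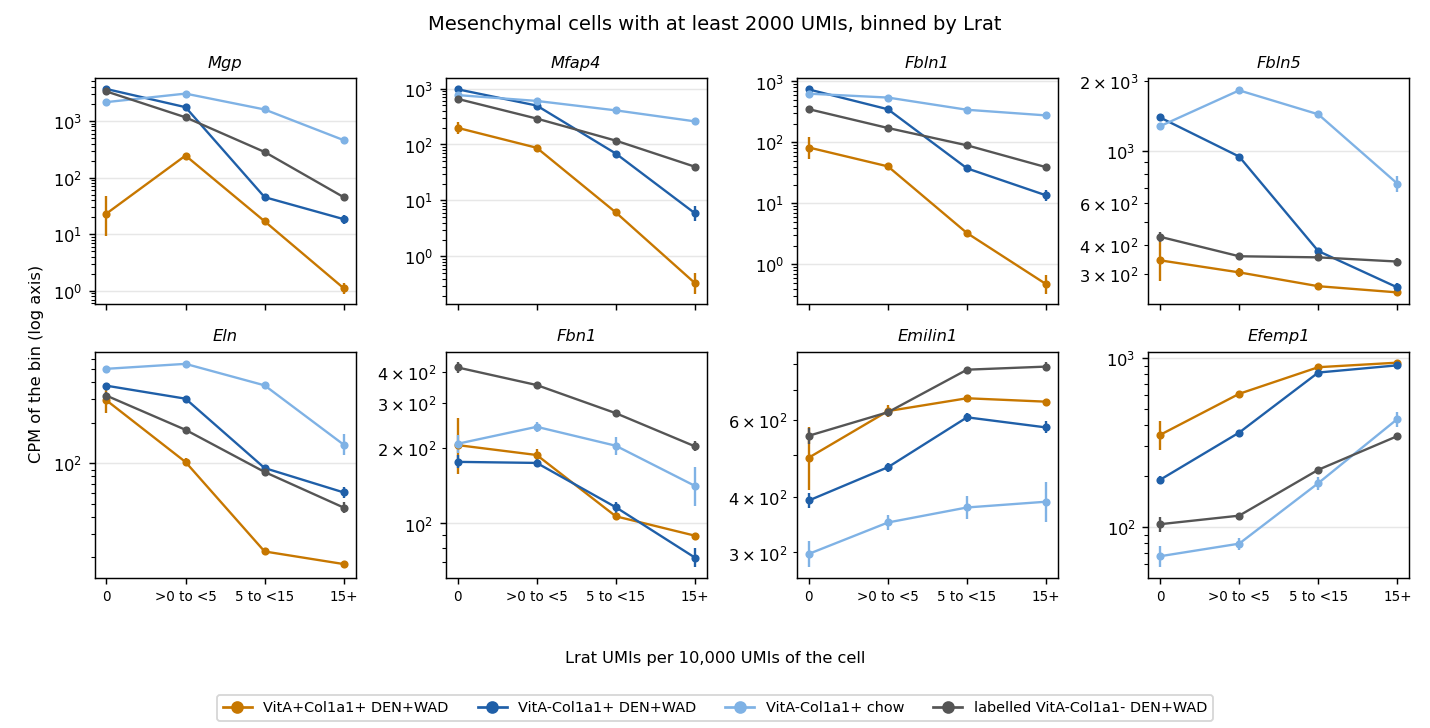
Level of 8 genes in mesenchymal cells with at least 2000 UMIs, binned by Lrat UMIs per 10000 UMIs, in the 4 libraries in which each bin held at least 20 cells, each point being the CPM of a bin on a log axis with its exact Poisson 95% interval. Mfap4 and Fbln1 are lower and Efemp1 higher in each successive bin of every library shown, and the chow line for Mgp ends at 459 CPM.

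Several genes of the list were seen more often in cells with Mgp than in cells without it, read after thinning to 2000 UMIs. In mesenchymal cells of VitA+Col1a1+ DEN+WAD, Mfap4 was seen in 35.7% of the 56 cells with Mgp and 0.348% of the 10052 without it, and Eln in 21.4% and 3.45%. Among mesenchymal cells of VitA-Col1a1+ DEN+WAD, Mfap4 was seen in 66.7% of the 541 cells with Mgp and 9.21% of the 1617 without it, Fbln1 in 56.7% and 8.72%, Fbln5 in 82.4% and 47.8%, and Eln in 39.2% and 17.9%. Efemp1 was seen in 29.2% of cells with Mgp and 66.9% of cells without, Emilin1 in 55.1% and 64.6%, and Mfap5 in none of either. In VitA-Col1a1+ chow the Efemp1 shares were 6.47% and 26.7%, and in the labelled library they lay closer, at 26.3% and 30.6%. Emilin1 went the other way in VitA-Col1a1+ chow, at 50.0% with Mgp and 41.7% without. Its shares lay close in VitA+Col1a1+ DEN+WAD (73.2% and 71.5%) and in the labelled library (65.9% and 69.6%). Cells are not replicates, so these shares describe the libraries.

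Fbln2 was also found in cells with Pecam1, an adhesion protein of endothelial cells that some macrophages carry too. Pecam1 marked 174, 439, 9, 38 and 2763 cells below the mesenchymal threshold in the 5 libraries, and Fbln2 in them stood at 33.7 CPM (25.2 to 44.1), 37.4 CPM (32.9 to 42.5), 0 UMIs, 12.6 CPM (5.42 to 24.8, 8 UMIs in 1 cell) and 33.3 CPM (31.2 to 35.5). In the Col1a1+ libraries these cells summed to 12424 CPM or more of the 9 endothelial markers and 1.57 CPM or less of the 7 macrophage markers. In the labelled library they held 6541 CPM of endothelial and 7275 CPM of macrophage markers, so the class there mixed both types. Its 399 cells with macrophage genes (C1qa, C1qb, Clec4f and Csf1r, at a sum of at least 20 per 10000 UMIs) held 12 Fbln2 UMIs (1.39 CPM), and its 2364 other cells stood at 47.5 CPM (44.5 to 50.7), with 9175 CPM of endothelial and 158 CPM of macrophage markers. This split was added after the data had been seen. Macrophages without Pecam1 in that library held 2 Fbln2 UMIs in 789 cells, 0.202 CPM. A single cell of VitA-Col1a1+ DEN+WAD held 100 of its 241 Fbln2 UMIs in Pecam1-positive cells, and without it the level was 22.0 CPM. Cells that carried Pecam1 and also passed the mesenchymal threshold, which may include doublets, were kept apart and numbered 106, 96, 12, 17 and 548.

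Within the Pecam1-positive cells Fbln2 was concentrated in those with Vwf, the von Willebrand factor of larger vessels. In the labelled library the 419 Vwf-positive cells stood at 195 CPM (182 to 208) and the 2344 Vwf-negative cells at 3.47 CPM (2.76 to 4.31), a ratio of 56.0 (44.6 to 71.2), at median depths of 9068 and 8252 UMIs. Macrophage markers summed to 2778 CPM with Vwf and 8106 CPM without. In cells without macrophage genes the levels were 224 CPM in 395 cells and 5.26 CPM in 1969 cells, a ratio of 42.7 (34.0 to 54.2), with macrophage markers at 127 and 166 CPM. For VitA-Col1a1+ DEN+WAD the levels were 219 CPM in 43 cells, or 116 CPM without the cell of 100 UMIs, and 7.07 CPM in 396 cells, and in VitA+Col1a1+ DEN+WAD 281 CPM in 13 cells and 2.15 CPM in 161 cells. Most Vwf-positive cells also held a UMI of Clec4g or Stab2, genes of sinusoidal endothelial cells. These were 395 of 419 in the labelled library, all 43 in VitA-Col1a1+ DEN+WAD and 12 of 13 in VitA+Col1a1+ DEN+WAD. The Vwf-positive cells were thus not a class free of sinusoidal genes. After thinning, Fbln2 was seen in 18.5% of Vwf-positive and 0.439% of Vwf-negative cells of the labelled library (26.0% and 1.49% at full depth) and in 0 of 563 macrophages, where 3 cells would be 0.533%.

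Other genes of the list differed with Vwf as well. In the labelled library Eln stood at 24.7 CPM with Vwf and 2.12 CPM without, Fbln5 at 26.3 and 4.32 CPM, Mgp at 74.0 and 7.41 CPM and Fbn1 at 55.7 and 20.8 CPM. With Fbln2 these were 5 of 9 genes at least 2-fold higher, beside 4.90% of all genes. Without macrophage-gene cells the same 5 ratios were 10.5 for Eln, 5.33 for Fbln5, 9.11 for Mgp, 2.06 for Fbn1 and 42.7 for Fbln2. Mfap4, with 3 and 35 UMIs, was the 1 gene past 2-fold lower (7.78% of all genes were), but its ratio of 0.464 had an interval of 0.0913 to 1.47. Emilin1 stood at 163 and 160 CPM (ratio 1.01, 0.934 to 1.10), and at 184 and 231 CPM without macrophage-gene cells (ratio 0.797, 0.733 to 0.865), against 23.7 CPM in macrophages. In VitA-Col1a1+ DEN+WAD 3 of 9 genes were at least 2-fold higher with Vwf (6.22% of all genes), namely Fbln2, Eln (52.1 against 2.36 CPM) and Fbn1 (94.4 against 24.7 CPM), and none was at least 2-fold lower (8.86%). Mgp (18.5 against 20.8 CPM) and Fbln5 (15.2 against 12.1 CPM) lay close together there. In VitA+Col1a1+ DEN+WAD Mgp had 0 UMIs with Vwf and 58 without, while Fbln5 stood at 95.4 and 4.30 CPM.

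Counted over whole libraries, mesenchymal cells held 76.1% (VitA+ DEN+WAD), 61.8% (VitA- DEN+WAD), 61.9% (VitA- chow) and 48.7% (labelled library) of the Fbln2 UMIs. Pecam1-positive cells below the threshold held 17.1%, 34.0%, 1.37% and 48.6%. In VitA+Col1a1+ chow 14 of the 15 Fbln2 UMIs came from 2 cells with genes of bile duct cells (Epcam, Krt7, Krt19 and Sox9, at a sum of at least 5 per 10000 UMIs), a class added after the data had been seen. In VitA-Col1a1+ chow 165 of 583 UMIs, 28.3%, came from 1 cell of 102759 UMIs that carried 281 UMIs of Spp1 and 146 of Col3a1 and fell in none of the named classes. Without the cells with bile duct genes, 1 Fbln2 UMI was left in VitA+Col1a1+ chow. The chow gate ratio was then 218 (39.0 to 8642) against 15.9 with them, and the DEN+WAD over chow ratio in VitA+ cells was 11.7 (2.08 to 462) against 0.847.

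**Figure D5:**
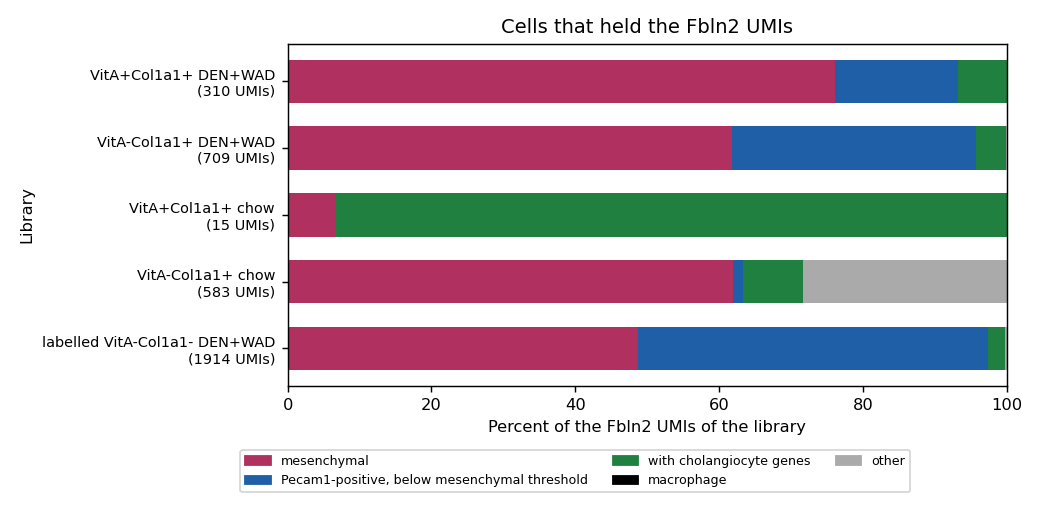
Percent of the Fbln2 UMIs of each library held by mesenchymal cells, by Pecam1-positive cells below the mesenchymal threshold, by cells with bile duct (cholangiocyte) genes, by macrophages and by other cells. Mesenchymal cells hold 48.7% and Pecam1-positive cells 48.6% in the labelled library, and the 15 UMIs of VitA+Col1a1+ chow lie almost wholly in cells with bile duct genes.

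A further 17 genes of elastic fibres and microfibrils, a list apart from the 10, were read in the same contrasts. In DEN+WAD 7 of the 17 were at least 2-fold higher in the VitA- gate (21.0% of all genes) and 1 at least 2-fold lower (3.02%), and in chow 7 (16.2%) and 2 (6.84%). Their median log2 ratios were 0.57 and 0.61, against 2.85 and 3.57 for the 10 genes. The 6 that reached the highest CPM are named. Ltbp4, a latent TGF-beta binding protein that helps fibulin assembly, stood at 256, 443, 418, 640 and 323 CPM in VitA+Col1a1+ DEN+WAD, VitA-Col1a1+ DEN+WAD, VitA+Col1a1+ chow, VitA-Col1a1+ chow and the labelled library. Adamtsl2, a microfibril-bound glycoprotein, stood at 119, 366, 194, 462 and 157 CPM, and the cross-linking enzyme Loxl1 at 55.6, 195, 36.0, 285 and 91.8 CPM. Those 3 were higher in the VitA- gate of each diet.

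Efemp2, or fibulin-4, which binds lysyl oxidase, stood at 251, 190, 173, 145 and 113 CPM, and the large fibulin-like hemicentin Hmcn1 at 111, 64.6, 167, 35.2 and 43.2 CPM. Both were higher in the VitA+ gate of each diet, on the side of Efemp1. Ltbp3 stood at 44.2, 65.5, 52.4, 94.1 and 36.6 CPM. In VitA-Col1a1+ cells 5 of the 17 were at least 2-fold lower in DEN+WAD than in chow (9.25% of all genes) and none was at least 2-fold higher (9.48%).

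Over 14 points, each 1 cell class of 1 library with at least 20 cells (mesenchymal cells with and without Lrat, Pecam1-positive cells, and macrophages), the mean profile of the 10 genes was compared with 5688 other genes that reached 50 CPM. The 5 most alike by Pearson's r of log2(CPM + 1) were Aebp1 (0.985), Htra1 (0.977), Rgs17 (0.974), Svep1 (0.974) and Atf5 (0.973). Each gene of the list was also set against the mean of the other 9: r was 0.977 for Eln, 0.937 for Fbln1, 0.928 for Mfap4 and 0.403 for Fbln2, the lowest. The points share libraries, so these values only describe the pattern.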

How the data were processed

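The authors sorted cells from mouse liver, made 10x Genomics 3' libraries (the labels name both a v2 and a v3.1 kit), aligned reads to mm10 and counted UMIs with Cell Ranger, version 3.1.0 in the headers of 4 libraries and 6.1.2 in that of the library labelled VitA-Col1a1-. What they deposited were whole UMI counts for each gene and barcode, not normalized, with at least 500 UMIs in each barcode. Each barcode was used as a cell, no doublet caller was run, and an alternative left out the 5% of cells with most UMIs in each library.

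UMIs were summed over cells and scaled to 1000000 (CPM). Levels carry exact Poisson 95% intervals, ratios exact conditional binomial intervals and shares of cells exact Clopper-Pearson intervals, all for counting error only. With 1 library per group no p-value was made. Genes with at least 10 UMIs over the libraries or classes compared were read at a 2-fold limit, and 0 UMIs were set at a floor of 3. For shares, cells were thinned at random to 2000 UMIs and shallower ones left out (172, 106, 4, 21 and 1439 cells). Gene positions came from GENCODE M21 on GRCm38. The ratio and interval code was tested on simulated data.

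All 10 genes are named. Of the further list of 17, the 6 with the highest CPM in any library are given with values, and the 5 genes most alike were taken by correlation. The genes, lists and alternatives were chosen with earlier results of these data known. Python 3.11.15 (numpy 2.4.6, scipy 1.17.1, pandas 2.3.3, matplotlib 3.10.9) was used, with TMM factors from edgeR 4.0.16 in R 4.3.3 as an alternative.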

Additional observations from a re-analysis of the deposited data

Results flagged for a closer look

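In the diet comparison 6 genes differed in opposite directions in the VitA+ and VitA- gates, each beyond its counting interval. Each value below is the log2 ratio of DEN+WAD to chow in VitA+Col1a1+ cells minus that in VitA-Col1a1+ cells. It was 1.66 for Eln (0.32 and -1.34), 4.03 for Fbln1 (2.92 and -1.11), 1.39 for Fbln5 (0.14 and -1.25) and 5.30 for Mfap4 (4.48 and -0.82). For Mgp it was 6.45 (5.33 and -1.12), where the first ratio is against 0 UMIs set at 3. For Emilin1 it was -0.53 (-0.05 and 0.48), and its VitA+ ratio turned to 0.14 with TMM factors. Among cells without Lrat, the VitA- ratios of Fbln1, Fbln5, Mfap4 and Mgp turned as well.

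In the comparison of mesenchymal cells without and with Lrat, 2 genes differed in opposite directions in the VitA-Col1a1+ libraries of DEN+WAD and chow. The log2 ratio in DEN+WAD minus that in chow was 1.56 for Fbln5 (1.20 and -0.36) and 2.42 for Mgp (2.21 and -0.21). With 1 library per group, none of these differences between gates or diets was tested.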

How the results depend on the processing

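No paired analysis was possible because each group was 1 library and no replicate could be left out. Over all alternatives, 129 of 154 counts of genes past 2-fold stayed within 1.5 times the reported count and 25 did not. Among 733 log2 ratios, 8 that were past 2-fold as reported turned direction. Smaller ratios that turned, such as that of Emilin1, are not counted among these 8. Of the others, 451 stayed within the counting interval of the reported ratio and 274 lay outside it. The 451 include 78 from the setting without a filter on low counts, which cannot change a ratio. The cause of these changes was not tested.

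With TMM factors, which shifted the log2 ratios of all genes by -0.20, -0.09, 0.19 and 0.08 in the DEN+WAD gate, chow gate, VitA+ diet and VitA- diet comparisons, the genes at least 2-fold lower in the VitA- gate were 1 in place of 0 in DEN+WAD (Efemp1 added) and 2 in place of 1 in chow (Emilin1 added). In cells with neither gene set, 4 in place of 8 genes were higher in the chow VitA- gate and 0 in place of 1 lower, and the log2 ratio of Fbln5 was -0.15 in place of 2.66. The DEN+WAD gate log2 ratio of Fbln2, 2.85, was -0.41 in cells without Lrat and -0.68 in fibroblast-gene cells.

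In the VitA+ diet comparison 1 gene in place of 0 was at least 2-fold lower both as a mean over cells and without the 5% of cells with most UMIs. In the VitA- diet comparison the 6 lower genes were 1 in cells without Lrat, 0 in fibroblast-gene cells and 2 in cells with neither set. Among genes past 2-fold, the log2 ratios turned to 0.23 (Fbln1), 0.12 (Fbln5) and 0.76 (Mgp) in cells without Lrat, and to 0.53 (Fbln5) and 0.85 (Mgp) in cells with neither set. Mfap4, at -0.82 over all cells and so not past 2-fold, also turned in cells without Lrat and in fibroblast-gene cells.

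In the Lrat comparison of VitA+ DEN+WAD cells the lower genes were 0 with Lrat called after thinning and 2 as a mean over cells, in place of 1. In VitA- chow cells 1 in place of 0 was lower with a mesenchymal threshold of 10, with Lrat called at 2 UMIs, after thinning, as a mean over cells and without the top cell of each gene. There the higher genes were 0 after thinning and 1 as a mean over cells, without the 5% of cells with most UMIs and without the top cell, in place of 2. In the labelled library 1 in place of 0 was lower at the threshold of 10, at 2 Lrat UMIs, as a mean over cells and without the top cell, and 3 in place of 6 were higher as a mean over cells.

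Fbln2 in Pecam1-positive cells of VitA- DEN+WAD, 37.4 CPM, was 24.1 CPM without the 5% of cells with most UMIs, 26.5 CPM as a mean over cells and 22.0 CPM without its top cell. In VitA- chow it went from 12.6 to 0 CPM without 1 cell. In the labelled library, 33.3 CPM became 41.3 CPM with at least 2 Pecam1 UMIs 38.9 CPM without the 5% of cells with most UMIs and 47.5 CPM without macrophage-gene cells. The settings by fibroblast genes, by neither set, by top cell, by bile duct genes and by macrophage genes were chosen after seeing the data. With under 20 cells, the chow gate and VitA+ diet comparisons in cells without Lrat and in fibroblast-gene cells, and Fbln2 in Pecam1-positive cells of VitA+ chow, were not run. Depth limits Mfap5 everywhere and Fbln1, Fbln2, Mfap4 and Mgp in VitA+ chow, where 3 UMIs correspond to 0.488 CPM.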
